A study of Mus musculus with 6 samples.

Results

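The forkhead factors are transcription factors that share a winged-helix DNA-binding domain and are named by subfamily letter from Foxa to Foxs. Foxa proteins are pioneer factors of endoderm that can engage closed chromatin. Foxc, Foxd, Foxf and Foxl members pattern mesoderm and mesenchyme, Foxo proteins are targets of insulin and growth factor signalling, and Foxp proteins are mostly repressors that act in heart, lung, brain and immune cells. The members described here are the 44 protein-coding genes, of 21887 used, whose symbol is Fox, a subfamily letter from a to s and a number. The data are the accessible intervals that overlapped their gene bodies or the 20 kb on either side, 852 of the 323483 in the consensus set.

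The intervals came from ATAC-seq, which marks open chromatin by transposase insertion, in mouse embryonic fibroblasts heterozygous for M2-rtTA and for TetO-Myf6, a transgene that doxycycline switches on. All cells were held for 24 h in iMPC medium with 10 ng/mL bFGF, and 3 groups had 2 libraries each. The medium group had nothing added, the Myf6 group had 2 µg/mL doxycycline, and the group with F/R/C had the same doxycycline with 5 µM forskolin, 5 µM RepSox and 3 µM CHIR99021. The table used here holds positions of the joined intervals with no value for a library or group, so levels per sample, replicate error and differences between the groups were not analysed here, and the depth is unknown. An interval states that a peak was called somewhere in the experiment. It gives no signal level and says nothing of whether the gene was transcribed.

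By symbol, 10 members belonged to Foxc, Foxd, Foxf and Foxl, here the mesenchymal class, 4 to Foxo, 4 to Foxp and 3 to Foxa, the endodermal class. Another 7 genes that many cell types express formed a broadly expressed class (Foxj2, Foxj3, Foxk1, Foxk2, Foxm1, Foxn2 and Foxn3), and the other 16, known mainly from particular organs, formed a restricted class. The class names follow known biology of the subfamilies or genes and were not read from these data. The mesenchymal name goes by subfamily letter, and not every member is known mainly from mesenchyme, as with the neural crest factor Foxd3. The cells' label was checked on the ends of marker genes: all 12 fibroblast and mesenchyme markers had an interval within 1 kb of a gene end, against 3 of 6 endoderm, 4 of 4 epithelial and 1 of 4 blood markers, while 74.7% of all protein-coding genes had one. Every fibroblast marker had one, but so did every epithelial marker, so the check did not tell these labels apart.

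The promoters of 6 members are shown first, 4 with an interval over them and 2 without. RefSeq promoter entries (GRCm38.p6) were matched for 28 members, and each line below gives the 250 bases before the start site, 5′ to 3′ on the gene's strand, with every CG dinucleotide in capitals. Foxl2 and Foxd1 had the widest intervals over a promoter in the mesenchymal class, Foxo1 and Foxp1 the widest in theirs. Foxe3 and Foxi1, of the restricted class, had none there, and Foxi1 was added after its values were seen.
Foxl2: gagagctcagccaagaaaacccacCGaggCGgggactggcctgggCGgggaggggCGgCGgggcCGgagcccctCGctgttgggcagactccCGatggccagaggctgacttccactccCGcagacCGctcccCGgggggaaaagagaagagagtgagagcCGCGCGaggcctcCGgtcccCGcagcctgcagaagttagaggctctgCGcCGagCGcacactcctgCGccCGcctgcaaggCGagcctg
Foxd1: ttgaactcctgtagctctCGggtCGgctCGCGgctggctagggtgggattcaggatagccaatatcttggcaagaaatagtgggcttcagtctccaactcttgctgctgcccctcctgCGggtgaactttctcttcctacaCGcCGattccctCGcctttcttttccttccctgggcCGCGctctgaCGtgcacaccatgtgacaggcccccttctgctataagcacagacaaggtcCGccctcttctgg
Foxo1: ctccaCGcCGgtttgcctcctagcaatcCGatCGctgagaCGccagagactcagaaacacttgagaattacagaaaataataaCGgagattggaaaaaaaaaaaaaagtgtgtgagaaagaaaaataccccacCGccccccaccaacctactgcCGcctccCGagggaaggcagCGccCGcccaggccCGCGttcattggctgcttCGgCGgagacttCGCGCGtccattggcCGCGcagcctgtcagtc
Foxp1: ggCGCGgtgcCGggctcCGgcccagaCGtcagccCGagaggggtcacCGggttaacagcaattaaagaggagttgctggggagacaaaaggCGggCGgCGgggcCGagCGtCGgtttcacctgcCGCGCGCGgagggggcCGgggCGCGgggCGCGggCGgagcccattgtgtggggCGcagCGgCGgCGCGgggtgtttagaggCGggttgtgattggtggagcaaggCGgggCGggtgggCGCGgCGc
Foxe3: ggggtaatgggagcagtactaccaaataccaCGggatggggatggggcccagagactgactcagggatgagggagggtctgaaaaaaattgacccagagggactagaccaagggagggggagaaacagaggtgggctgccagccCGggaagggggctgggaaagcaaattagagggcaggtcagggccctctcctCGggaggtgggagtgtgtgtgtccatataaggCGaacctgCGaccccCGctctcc
Foxi1: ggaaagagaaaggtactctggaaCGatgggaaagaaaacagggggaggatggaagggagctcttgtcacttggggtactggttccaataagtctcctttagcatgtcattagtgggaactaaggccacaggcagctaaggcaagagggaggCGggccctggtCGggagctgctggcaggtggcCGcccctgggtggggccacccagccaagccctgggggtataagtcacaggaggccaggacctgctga
The Foxl2 sequence lies at chr9:98955357-98955606 on the plus strand and holds 22 CG. Foxd1 lies at chr13:98353995-98354244 (plus, 12 CG), Foxo1 at chr3:52268087-52268336 (plus, 20 CG) and the last start in gene order of Foxp1 at chr6:99028299-99028548 (minus, 34 CG). Foxe3 lies at chr4:114926068-114926317 (minus) with 6 CG, and Foxi1 at chr11:34208090-34208339 (minus) with 4. The median over all promoters of protein-coding genes was 10 CG in the same 250 bases. The 4 promoters under an interval lay above that median and the 2 without one lay below it. The 6 were picked, Foxi1 with its values seen, so this split says nothing of the other promoters.

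Forkhead genes as a set held more intervals per length than the median gene. Density was counted as intervals per 100 kb of the gene body with its 20 kb flanks. The members had a median of 24.8 per 100 kb, against 18.2 over all protein-coding genes, whose quartiles were 9.17 and 25.4. Of the 44 members, 33 lay above the all-gene median, where 50.0% of all genes lie, 22 lay above the upper quartile, where 25.0% of all genes lie, and 3 lay below the lower quartile, where again 25.0% of genes lie. Every member had at least 1 interval in its window, whereas 12.9% of all genes had none. The counts per window ran from 1 at Foxr2 to 186 at Foxp1, and 18 intervals lay in the windows of several neighbouring members.

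**Figure D1:**
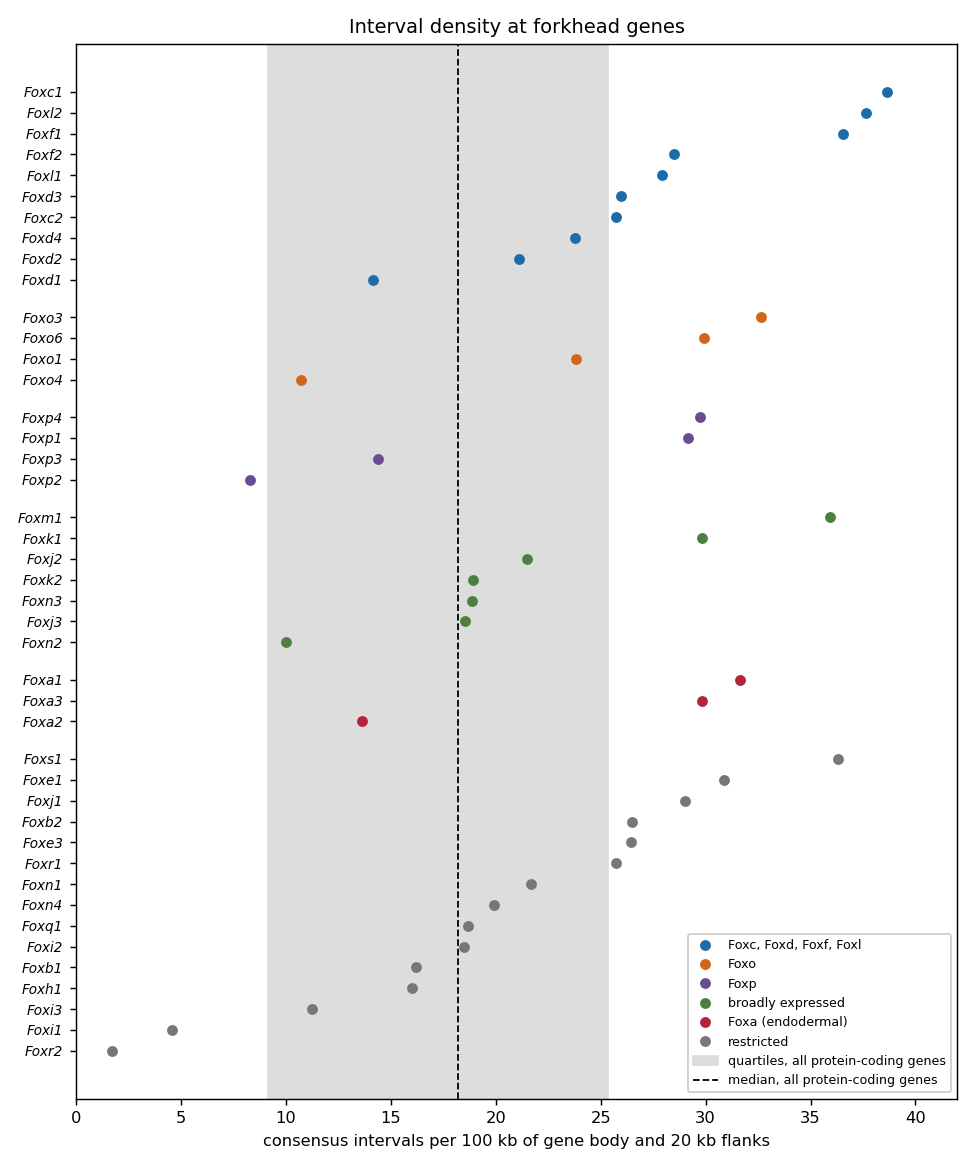
Intervals per 100 kb of gene body and 20 kb flanks for the forkhead genes drawn, 1 point per gene, grouped by class, with the quartiles (grey band) and median (dashed line) over all protein-coding genes. Most of the Foxc, Foxd, Foxf and Foxl genes sit to the right of the median of 18.2, with Foxd1 to the left of it, and every class spreads widely.

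The mesenchymal genes had the highest class median of the share of window sequence under intervals with the 20 kb flanks used here. It was 16.4% of the window, against 9.19% over all genes, a ratio of 1.78. Their median density was 26.9 per 100 kb, a ratio of 1.48. With these flanks the Foxa genes came first in density, with a median of 29.8 (ratio 1.64) over 3 genes. The Foxo median of 26.9 (ratio 1.48) was just below the mesenchymal one. The order changed with the setting. The mesenchymal genes led with the gene body alone (ratio 2.23, Foxa 1.32) and with 50 kb flanks (1.25, Foxo 1.24, Foxa 1.19). They also led with intervals of at least 300 bp and with class means. The Foxa genes led with 10 kb flanks (2.18) and with overlapping windows joined. The Foxo genes led with intervals of at least 600 bp (2.02) and with other genes left out (1.65). Nor did the mesenchymal genes lead in cover under every setting. With 10 kb flanks the Foxa genes had the higher median cover (20.7% against 18.7%). With intervals of at least 600 bp the Foxo genes did (11.0% against 9.93%). In 9 of the 10 mesenchymal genes the density lay above the all-gene median, and in 7 above the upper quartile. Foxc1, a regulator of eye, skull and somite mesenchyme, had the highest density of all members, 38.6 per 100 kb from 17 intervals, above 97.9% of protein-coding genes. Foxl2, known from the granulosa cells of the ovary and from eyelid mesenchyme, followed with 37.6 from 16 intervals, and Foxf1, a Hedgehog target of visceral mesenchyme, had 36.6 from 16. Of those at Foxf1, 6 lay over or within 1 kb of the neighbouring gene Mthfsd. At the other end, Foxd1, which marks the stroma of the embryonic kidney, had 14.1 from 6 intervals, below the all-gene median. Foxd2 had 21.1 from 9 and Foxd4 had 23.8 from 10. Foxf2 (28.5), Foxl1 (27.9), the neural crest factor Foxd3 (11 intervals) and Foxc2 (25.7), a factor of lymphatic vessels and of mesenchyme, lay between them.

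Number and width of intervals did not go together within this class. Foxc1 (chromosome 13, 31806646 to 31810635, gene ID 17300) reached its count without any interval of 1 kb or more. Its widest, 887 bp at 31801086 to 31801972, lay 4674 bp before the gene, and 3 intervals of 745, 824 and 711 bp followed each other over the gene. Of the 17, 5 lay over or within 1 kb of the neighbouring gene Gmds. Foxl2 (chromosome 9, 98955607 to 98958126, gene ID 26927) instead had a single interval of 2813 bp, 98954629 to 98957441, over its start and most of its body. Foxd1 (chromosome 13, 98354245 to 98356705, gene ID 15229) had few intervals but 71.4% of its body covered, all of it by an interval of 2170 bp. Foxf2 (chromosome 13, 31625816 to 31631406, gene ID 14238) had an interval of 2153 bp over its start and another of 2063 bp at 31617902 to 31619964, 5852 bp before the gene.

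Cover was highest over the mesenchymal genes themselves and fell with distance. Pooled over the 10 genes, intervals covered 44.5% of gene bodies, 19.0% of the first 5 kb of flank, 14.9% from 5 to 10 kb, 11.8% from 10 to 15 kb and 8.63% from 15 to 20 kb. All protein-coding genes under 10 kb, the size range of the whole class, had 14.6%, 9.36%, 7.54%, 7.58% and 7.53%. The distance to the all-gene values therefore narrowed from the body outward. The windows of Foxf1, Foxc2 and Foxl1 overlap, so some of the same bases entered the pooled values more than once. At the Foxa genes cover was 20.2% over the bodies, higher in the first 5 kb (28.5%), and 0.553% from 15 to 20 kb. The restricted class stayed between 10.9% and 8.05% over the 4 flank zones.

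**Figure D2:**
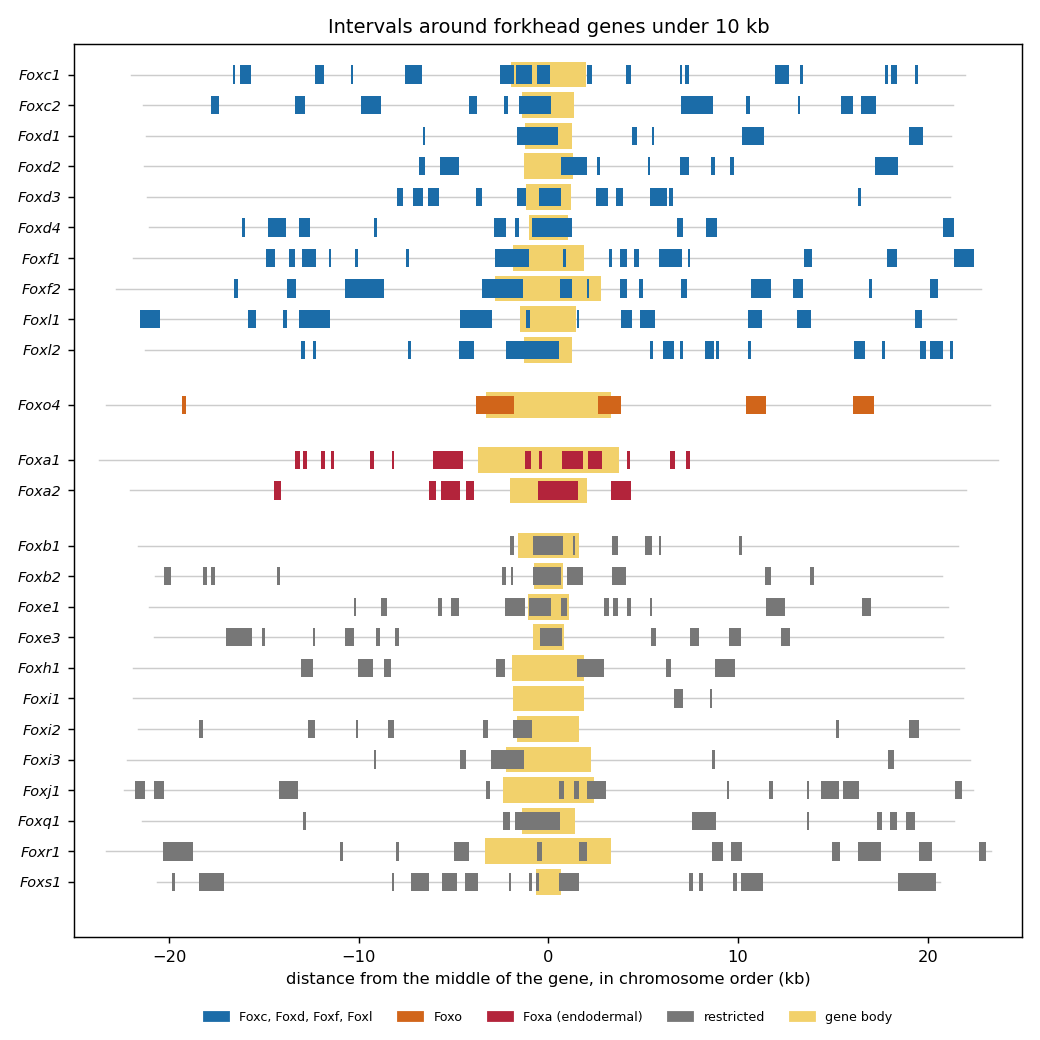
Intervals (coloured blocks, drawn to scale) in the gene body (yellow) and 20 kb flanks of the forkhead genes under 10 kb that are drawn, aligned on the middle of each gene in chromosome order, in kb. Wide blocks sit over most gene bodies, while Foxi1 has no block over the gene and only 2 on its upper side.

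Neighbouring members shared part of their intervals. On chromosome 8, Foxf1 (121084386 to 121088154, gene ID 15227), Foxc2 (121116171 to 121118895, gene ID 14234) and Foxl1 (121127685 to 121130644, gene ID 14241) lie within 46.3 kb, and 15 intervals covered 20.1% of that stretch. Foxc2 and Foxl1 are 8.79 kb apart and shared 9 intervals, Foxf1 and Foxc2 shared 3, and Foxf1 and Foxl1 shared 1. An interval of 1779 bp lay at the lower end of Foxf1, and an interval of 1669 bp at that of Foxc2. Foxl1, a factor of gut mesenchyme, had intervals of only 198 and 101 bp at its ends, and the widest one near it, 1690 bp at 121124528 to 121126217, lay 1468 bp below the gene, between Foxc2 and Foxl1. On chromosome 4, Foxd2 and Foxe3 are 15.5 kb apart and shared 7 intervals. On chromosome 13, Foxq1, Foxf2 and Foxc1 lie further apart, by 64.8 and 175 kb, and shared none. That stretch of 252 kb from Foxq1 to Foxc1 had 44 intervals and 9.53% cover, close to the all-gene median cover of a window. No other members had overlapping windows.

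The Foxo genes, which restrain growth and promote stress resistance when growth factor signalling is low, had a median density of 26.9 and a median cover of 14.0%, 1.53 times the all-gene median. Foxo3 led with 32.6 per 100 kb (44 intervals), ahead of Foxo6 with 29.9 (18), Foxo1 with 23.8 (29) and Foxo4 with 10.7 (5). Foxo1 (chromosome 3, 52268337 to 52350109, gene ID 56458) carried the widest interval of all members, 3340 bp at 52267562 to 52270901, which reached 775 bp before its start site and 2564 bp into the gene. Foxo3 (chromosome 10, 42181845 to 42276695, gene ID 56484) had an interval of 836 bp at its start, another of 1205 bp lying 647 bp beyond it, and 4 more of 1 kb or wider inside the gene, the widest of 1706 bp. Foxo4 had the fewest intervals of the class, but 4 of its 5 were 1 kb or wider. The widest of them, 2007 bp, spanned its lower end. Those of 1186, 1040 and 1113 bp lay over or within 1 kb of neighbouring genes.

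Foxp1 and Foxp2 are the longest members, and Foxp1 held several times more intervals over its body than Foxp2. Foxp1, which acts in heart, lung and lymphocytes (chromosome 6, 98925342 to 99522746, gene ID 108655), held 182 intervals over its 597 kb, or 30.5 per 100 kb of body. Foxp2, known for its part in neural circuits of vocalisation (chromosome 6, 14901349 to 15441977, gene ID 114142), held 45 over 541 kb, or 8.32 per 100 kb. Cut into 5 equal stretches in gene order, Foxp1 held 42, 29, 32, 33 and 46 intervals, with a longest stretch without any of 25.0 kb. For Foxp2, whose strand was not used here, the 5 stretches in chromosome order held 5, 5, 9, 17 and 9, and the longest empty stretch was 63.6 kb (14953913 to 15017481). Foxp1 had 14 intervals of 1 kb or wider over its body and Foxp2 had 2. Foxp2 nevertheless had an interval of 2116 bp at its lower end, 14899821 to 14901936. Cover of the whole windows was 12.4% for Foxp1 and 3.36% for Foxp2. The median cover of the 4 Foxp genes was 1.21 times the all-gene median, but 0.926 times over gene bodies alone and 0.984 times with flanks of 50 kb.

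**Figure D3:**
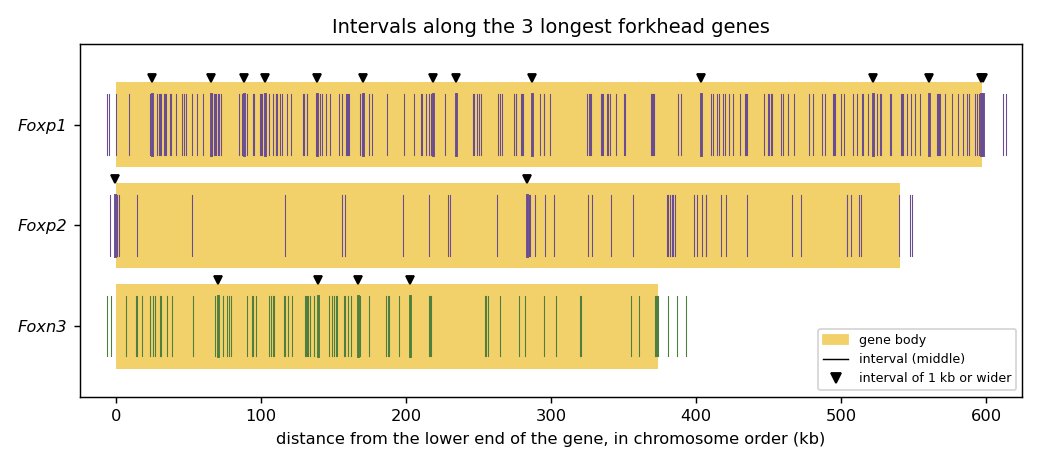
Middle points of intervals (vertical lines) along the 3 longest forkhead genes, from the lower end of each gene in chromosome order, in kb, with triangles over intervals of 1 kb or wider. Foxp1 is dense over its whole length, with 182 intervals over the gene, whereas Foxp2 has 45 and long empty stretches in its lower part.

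Foxp1 had 3 RefSeq start sites, and each had an interval over it, of 1422, 820 and 2287 bp in gene order. All 3 lie inside the annotated gene body. The widest interval lay at the last of them in gene order, where the promoter had the highest observed over expected CpG ratio of the 3 (1.11, against 0.499 and 0.282). Foxp4 had 29.7 intervals per 100 kb and an interval of 1987 bp over its start. Foxp3, the defining factor of regulatory T cells (chromosome X, 7579676 to 7595243, gene ID 20371), had 8 intervals in its window, of which 1 overlapped the gene and 7 lay in the flanks at other genes. The one over the gene, of 513 bp, also lay over or within 1 kb of a neighbouring gene. None of the 8 lay within 1 kb of either end of Foxp3 or over either of its 2 start sites.

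**Figure D4:**
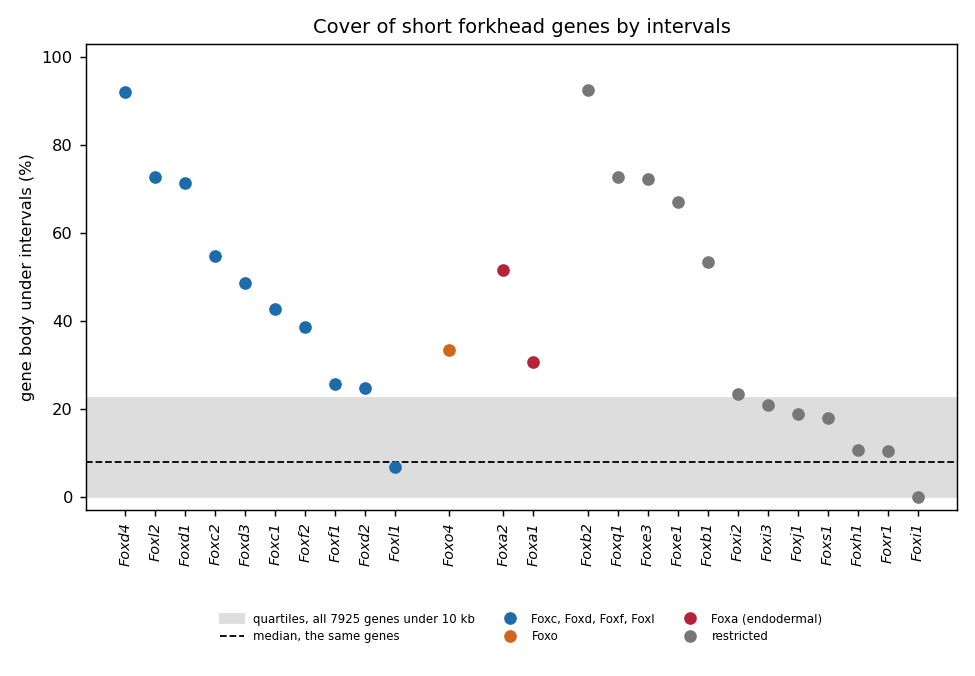
Share of the gene body under intervals (%) for the forkhead genes under 10 kb that are drawn, 1 point per gene, with the quartiles (grey band) and median (dashed line) over all protein-coding genes of that size. Points above the band are found in all 4 classes drawn, up to Foxb2 at 92.6%, and Foxi1 is at 0.

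The broadly expressed class lay close to the all-gene values, with a median density of 18.9 (ratio 1.04) and a median cover of 9.67% (ratio 1.05). Counting only intervals of at least 300 bp, the ratio of density was 0.985. Foxm1, a regulator of genes of mitosis, had 35.9 per 100 kb (19 intervals, 10 of them over or within 1 kb of the neighbouring genes Tulp3, Rhno1 and Tex52, 8 in the flanks and 2 over Foxm1 itself). Foxk1, which represses autophagy genes, had 29.8 and the largest cover of the class, 20.5%, with intervals of 2437 bp at its lower end and of 2082 bp inside the gene (142439835 to 142441916). Of the 30 intervals at Foxk1, 8 lay over or within 1 kb of the neighbouring gene Ap5z1. Foxj2 had 21.5, Foxk2 18.9, Foxn3 18.9 and Foxj3 18.5. Foxn2 had 10.0 from 9 intervals, of which the interval of 2074 bp at its lower end was the only one of 1 kb or wider. Foxn3, at 374 kb after Foxp1 and Foxp2 the longest member, had 73 intervals over its body, and its widest, 2495 bp at 99391523 to 99394017, lay inside the gene over the neighbouring gene model Gm51999.

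All 3 Foxa genes and 14 of the 16 restricted genes had an interval within 1 kb of a gene end. These classes are known mainly from other tissues, and 74.7% of all genes had one. At Foxh1 the end intervals, of 523 and 1441 bp, also lay over or within 1 kb of neighbouring genes. The 3 Foxa genes, which open liver, lung and gut enhancers, had 31.6 (Foxa1), 29.8 (Foxa3) and 13.6 (Foxa2) intervals per 100 kb. At Foxa1 (chromosome 12, 57540628 to 57548029, gene ID 15375), an interval of 1086 bp lay over the start site and one of 1576 bp lay 784 bp below the lower end of the gene. The first of these, and others of 538 and 210 bp over the gene, lay over or within 1 kb of the neighbouring gene Ttc6. So did 3 intervals in the flanks. Foxa2 (chromosome 2, 148042877 to 148046969, gene ID 15376) had only 6 intervals, but one of 2113 bp covered 51.6% of the gene and 2 of its 3 start sites. Foxa3 (chromosome 7, 19013283 to 19023539, gene ID 15377) was the opposite case: of its 15 intervals 10 lay in the flanks at other genes, and intervals covered 0.146% of its body, by the edge of an interval of 192 bp at its start. That interval also lay over or within 1 kb of a neighbouring gene. The class median of cover, 1.32 times the all-gene median, was 0.961 times with flanks of 50 kb.

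The 16 restricted genes covered the widest range of density, with a lowest value of 1.72 per 100 kb and a median of 20.8, or 1.14 times the all-gene median. With flanks of 50 kb that ratio was 0.993. Of the restricted genes, 13 were under 10 kb, the size range of the whole mesenchymal class. With 20 kb flanks their median density was 25.7, or 1.41 times the all-gene median. The mesenchymal genes had 26.9, and all protein-coding genes under 10 kb had 15.9. Foxs1, known from pericytes and sensory neurons, had 36.3 and the highest cover of all members, 22.8%, with 7 of its 15 intervals at Mylk2, Dusp15 and Ttll9. Foxe1, a thyroid factor, had 30.9. The lowest were Foxr2 with 1.72 (1 interval), Foxi1, a factor of acid-secreting cells of the inner ear and kidney, with 4.57 (2 intervals), and Foxi3, of ectodermal placodes, with 11.2 (5). Between these, 10 more genes ran from Foxh1, a partner of Smad proteins with 7 intervals, to Foxj1, the regulator of motile cilia with 29.0 per 100 kb, and held Foxb1, Foxi2, Foxq1, Foxn4, Foxn1, Foxr1, Foxe3 and Foxb2 in rising order.

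Short forkhead genes were often covered over much of their bodies. Of the 26 members under 10 kb, 11 had over 50% of the body under intervals, where 5.64% of all protein-coding genes of that size did. Among them were Foxd4 (92.0%), Foxl2 (72.8%), Foxd1 (71.4%) and Foxc2 (54.8%) of the mesenchymal class, Foxa2, and, of the restricted class, which had 6 of 13 genes of that size past 50%, Foxb2 (92.6%), Foxq1 (72.6%), Foxe3 (72.2%), Foxe1 (67.1%) and Foxb1 (53.4%). The median cover was 45.6% over the 10 mesenchymal genes and 23.5% over the 13 restricted ones, against 7.90% for all genes of that size. Foxb2, known from the embryonic brain, and Foxq1, known from hair and gastric epithelium, were thus covered as fully as the mesenchymal genes at the top of the list. Foxl1 had the lowest body cover of the mesenchymal class, 6.69%.

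At gene ends, 41 of the 44 members (93.2%) had an interval within 1 kb of either end, where 74.7% of all genes had one. Both ends had one in 25 members (56.8%), where 31.7% of all genes had. All members of the mesenchymal, Foxo, broadly expressed and Foxa classes had one. The 3 members without were Foxp3, Foxi1 and Foxr2. The gene bodies of Foxi1 and Foxr2 had no interval at all, and the nearest lay 4751 and 6808 bp away.

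Of the 28 members with a RefSeq promoter entry, which spans 250 bases before to 50 after a start site, 20 had an interval over one, where 67.0% of all genes with an entry had. All 7 mesenchymal genes with an entry, all 3 Foxa genes and both such Foxo genes had one, against 3 of 9 restricted genes. The 8 without were Foxp3, Foxn3, Foxe3, Foxi1, Foxn1, the regulator of thymic epithelium, Foxn4, Foxr1 and Foxr2. At Foxe3, a lens factor, the promoter entry missed an interval by little: an interval of 1174 bp ended 67 bp inside the start site and covered most of the gene. Foxn3 had a different case, since its only entry lies inside the gene, and the nearest interval was 3670 bp away. The upper end of Foxn3, its 5′ end on the minus strand, did lie under an interval, of 594 bp.

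The promoters with an interval were mostly those rich in CpG, as over all genes. A CpG ratio (observed over expected in the 300 bases) of 0.6 or more was found in 21 of the 33 forkhead promoters. Among all promoters of protein-coding genes, 10137 of 21263 had such a ratio. Of the 21 forkhead promoters, 19 had an interval. Of the 12 with a lower ratio, 4 had one. Over all 21263 promoters of protein-coding genes the shares were 94.9% and 40.5%, close to the forkhead values of 90.5% and 33.3%. The exceptions were Foxn4 (ratio 0.688) and Foxr1 (0.619), which had no interval, and Foxi2 (0.198), Foxb2 (0.502) and 2 starts of Foxp1, which had one. Promoters of 1 gene share their surroundings, and these shares are a description.

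**Figure D5:**
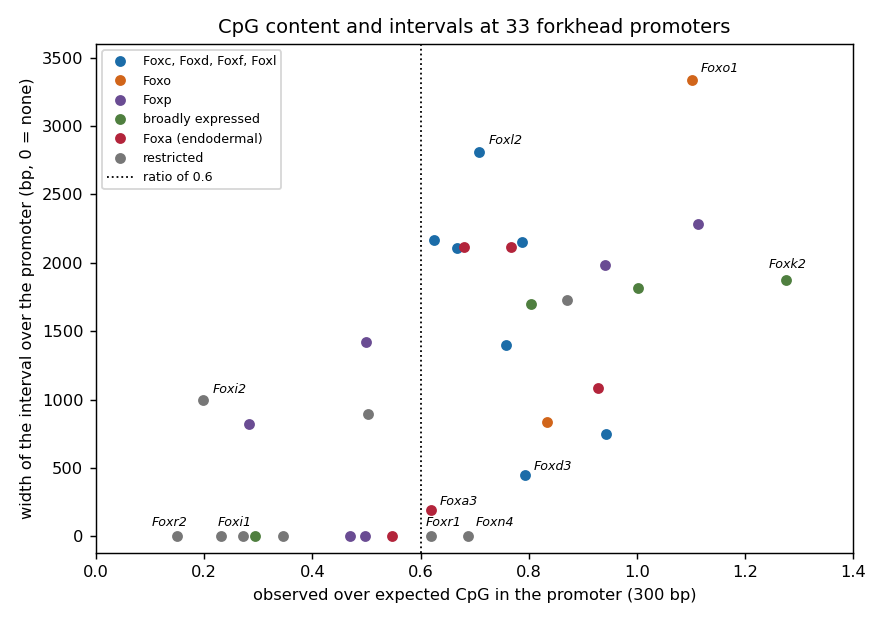
Observed over expected CpG ratio of each of the 33 forkhead promoter entries (300 bp) against the width in bp of the interval over it, with 0 for none, coloured by class, and a dotted line at a ratio of 0.6. To the right of the line 19 of 21 entries have an interval, led by Foxo1 with 3340 bp, and to the left 4 of 12.

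Short motifs were searched in the 300 bases on both strands. The GC box GGGCGG was in 24 of the 33 forkhead promoters (72.7%), against 46.2% of all promoters, and in 19 of the 23 that lay under an interval, against 63.1% of all promoters under an interval. Foxo1 and Foxo3 had 5 GC boxes each, a number that 3.75% of all promoters reach or pass. Foxo1 also had 3 matches to CCAAT, as 3.92% of all promoters have or pass. The E-box CAGCTG, a form that myogenic factors can bind, was in 5 of 33 (15.2%), against 15.6% of all: Foxf2, Foxn1, Foxp3, Foxp4 and Foxr1. The forkhead core TGTTTAC was in the promoter of Foxa1 alone (3.03%, against 3.01% of all). CACGTG was in 1 promoter (Foxd3), against 7.84% of all promoters. TATAAA was in 3 (9.09%, against 12.6%) and TGANTCA in 2, Foxe3 and Foxn3 (6.06%, against 6.99%). CCAAT was in 15 (45.5%, against 38.2%). A match is a run of letters and not a bound site.

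The 3 members on chromosome X were in the lower part of their classes. Foxo4, Foxp3 and Foxr2 had 10.7, 14.4 and 1.72 intervals per 100 kb. Protein-coding genes of chromosome X had a median of 7.30, against 18.7 for all others, so Foxo4 and Foxp3 lay above the median of their chromosome and Foxr2 below it. Whether the chromosome accounts for their low values was not tested.

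The median width of the members' intervals was near that of the whole set, but wide intervals made up a larger share. The median was 342 bp over the 852 intervals, against 336 bp over all intervals, and 12.3% were 1 kb or wider, against 8.71%. All intervals include those far from any gene, so the sets are not matched for distance to genes. The shares by class were 18.6% for the restricted, 16.7% for the Foxa, 15.6% for the Foxo, 14.7% for the mesenchymal, 11.0% for the broadly expressed and 7.38% for the Foxp genes. The 10 widest belonged to Foxo1, Foxl2, Foxn3, Foxk1, Foxq1 (2380 bp), Foxp1, Foxd1, Foxf2, Foxp2 and Foxa2 (2113 bp), and each overlapped the body of its gene. At the limit of the windows, the last interval inside was one of 168 bp 19902 bp from Foxl2, and the first outside was one of 146 bp 20230 bp from Foxs1.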

How the data were processed

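ATAC-seq libraries of 3 groups with 2 libraries each were joined by the authors into 1 set of 323483 consensus intervals. Per the file headers, HOMER's annotatePeaks was run with GRCm38.p6 and GENCODE vM23. BWA, MACS2 and DESeq2 are named in the submitters' processing notes, without roles. For peak calling, joining and filters, settings are not given in the sources used here. A deposited peak score is 0 throughout and was not used, nor were the annotation columns, which hold no values. Positions are 1-based.

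Gene positions, promoters and strand came from RefSeq tables of GRCm38.p6, without 13 mitochondrial genes. An interval counted from 1 bp of overlap. Wide joined intervals can hold several peaks. The members, classes, lists and alternatives were chosen with earlier results of these data known, so counts and medians are descriptions beside all genes, and no test was run. CpG and motif counts, distance zones and the size limit were added with the values in view. The genes named were, per class, the 3 of highest and lowest density, those without an interval at a gene end or start, those with the 10 widest intervals, and neighbours with overlapping windows. Others, such as Foxb2 and Foxj1, were named after their values were seen. One member, part of the counts and medians, is not reported here by name or drawn. The counting was tested on simulated data. Python 3.11.15, numpy 2.4.6, pandas 2.3.3 and matplotlib 3.10.9 were used.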

Additional observations from a re-analysis of the deposited data

How the results depend on the processing

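No paired analysis was possible because the table has no column for a library, and leaving out libraries was not run for the same reason. Of 89 values under another setting, 74 stayed within 1.5 times the main value and, for class medians relative to all genes, on the same side of 1. The 852 intervals became 499 with the gene body alone, 469 with intervals of at least 300 bp and 250 with at least 600 bp. The 41 members with an interval at an end became 36 to 43 under the 5 other settings, as the share of all genes moved between 64.2% (a reach of 100 bp) and 82.9% (5 kb). With the gene body alone, the class median of density relative to all genes was 2.23 for the mesenchymal and 1.79 for the restricted class, and that of cover was 5.23 (mesenchymal), 2.32 (Foxo), 3.53 (Foxa), 2.27 (restricted) and 0.926 (Foxp). With 50 kb flanks the restricted density fell to 0.993, and cover to 0.984 (Foxp) and 0.961 (Foxa). With 10 kb flanks Foxa cover was 2.20. With intervals of at least 300 bp the broadly expressed density was 0.985. The cause of these shifts was not tested. The mesenchymal and Foxo medians lay above the all-gene median under each setting run. The depth is unknown, so a gene without an interval is one without a called peak, not one shown to be closed.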

Other observations

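Intervals near forkhead genes also lay at ends of 4 neighbouring non-coding genes. Fendrr (chromosome 8, 121054882 to 121083110), a lncRNA gene of lateral mesoderm next to Foxf1, had an interval within 1 kb of its upper end, on the side of Foxf1, which was the interval of 1779 bp over the lower end of Foxf1. It had none at its lower end, and 9.87% of its body covered. Foxl2os (chromosome 9, 98949155 to 98955310) had intervals at both ends and 26.6% cover, and its upper end lies under the interval of 2813 bp that also covers the start of Foxl2. Foxd2os, with 13.1% cover, had end intervals at the lower end only, among them the one of 1399 bp that also spans the upper end of Foxd2. Foxo6os had end intervals at the upper end only and 0.870% cover. The values of these 4 genes were picked by name after the data were seen and were not set against other non-coding genes.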
